A study of Mus musculus with 8 samples.

Results

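A set of 10 genes that mark activated hepatic stellate cells and fibroblasts, the collagens left out, was followed across 8 gene arrays of primary mouse hepatocytes: Postn, Sparc, Acta2, Tagln, Des, Lum, Dcn, Pdgfrb, Lox and Thy1. They were chosen by name, as the probe set of the deposited table whose platform symbol is the gene, the brightest where a gene has several. Each of the 10 had exactly 1 probe set, so 10 of 19937 genes with a usable probe set are described. Livers of male BALB/c mice were perfused with collagenase and the hepatocytes purified on a Percoll gradient. The mice were homozygous for a knockout of heme oxygenase 1 (HO1-/-) or were wild-type littermates (HO1+/+). Cells of either genotype received a lentivirus with a scrambled short hairpin RNA (shRNA) or with 1 shRNA against heme oxygenase 2 (HO2), were kept in puromycin for 3 days, and were given 1 µM dexamethasone for 30 min. They were harvested 28 h later, and 300 ng of total RNA went onto each array. The 4 groups of 2 arrays were combined (HO1-/-, HO2 shRNA), HO1 knockout (HO1-/-, scrambled shRNA), HO2 knockdown (HO1+/+, HO2 shRNA) and control (HO1+/+, scrambled shRNA). Lentivirus, puromycin and dexamethasone were thus common to all groups, controls included. Neither the age of the mice nor the exons deleted in HO1-/- animals is stated in the sources used here. The labels name the replicates biological without saying whether animals or cultures were separate, so a p-value covers the spread among these samples alone. Genotype and cell preparation cannot be told apart.

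Hepatic stellate cells lie between hepatocytes and the sinusoids, store vitamin A in healthy liver, and turn into contractile, matrix-producing myofibroblasts after injury or on culture plastic. Smooth muscle actin and its partners form the contractile apparatus of these cells, matricellular proteins and small leucine-rich proteoglycans organise the collagen that they secrete, and lysyl oxidase crosslinks it. Growth factors of the PDGF and TGF-beta families drive that change. Hepatocytes are not the usual source of these transcripts, and a hepatocyte isolate can carry a few stellate cells and fibroblasts into culture. In such bulk RNA, fewer cells of a type and less RNA per cell cannot be told apart.

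The stretches below are the 250 bases before the annotated start, on the strand of the gene, of 3 members whose response to HO2 shRNA differed between the genotypes: Acta2 (chr19:34255374-34255623, minus strand), Sparc (chr11:55420081-55420330, minus strand) and Postn with a pair of starts (chr3:54360857-54361106 and chr3:54359017-54359266, plus strand). They come from RefSeq promoters of build GRCm38.p6, which held 4 of the 10 genes, Des being the other. Capitals mark matches, on either strand, to TATAAA, to the E-box CANNTG, to the SMAD motifs CAGAC and GTCTAGAC, to the AP-1 motif TGANTCA, to the TEAD motif GGAATG or to the CArG box. The CArG box, bound by serum response factor, was searched only in its strict form CCWWWWWWGG, where W is A or T.
Acta2: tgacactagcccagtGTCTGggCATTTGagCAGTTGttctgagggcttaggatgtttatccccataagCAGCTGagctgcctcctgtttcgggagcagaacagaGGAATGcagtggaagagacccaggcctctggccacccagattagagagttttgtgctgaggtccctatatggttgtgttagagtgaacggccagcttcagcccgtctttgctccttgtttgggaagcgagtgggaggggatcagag
Sparc: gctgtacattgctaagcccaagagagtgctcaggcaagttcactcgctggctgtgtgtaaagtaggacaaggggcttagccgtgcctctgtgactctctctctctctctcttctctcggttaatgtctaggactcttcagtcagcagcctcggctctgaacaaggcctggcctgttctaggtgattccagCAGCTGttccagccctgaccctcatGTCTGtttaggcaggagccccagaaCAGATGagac
Postn, first start listed: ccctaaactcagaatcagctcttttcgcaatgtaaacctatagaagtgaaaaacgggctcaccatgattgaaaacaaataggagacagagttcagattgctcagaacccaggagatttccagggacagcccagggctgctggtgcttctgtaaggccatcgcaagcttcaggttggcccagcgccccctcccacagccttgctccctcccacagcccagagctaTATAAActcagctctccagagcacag
Postn, other start: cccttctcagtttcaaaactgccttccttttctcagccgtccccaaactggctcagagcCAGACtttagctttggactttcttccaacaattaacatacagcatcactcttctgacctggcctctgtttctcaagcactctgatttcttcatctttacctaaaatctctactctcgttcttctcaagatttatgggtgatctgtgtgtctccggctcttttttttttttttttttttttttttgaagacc
The Acta2 stretch holds 3 matches to CANNTG, 1 to GGAATG and 1 to CAGAC on the other strand, and the Sparc stretch 2 to CANNTG and 1 to CAGAC on the other strand. The first Postn stretch holds TATAAA at bases 225 to 230 and the other CAGAC at bases 60 to 64. Among 32851 promoter stretches of this length, 66.2% held CANNTG, 42.2% CAGAC, 12.6% GGAATG and 12.4% TATAAA. None of the 5 stretches of the 4 genes held the strict CArG box, GTCTAGAC or TGANTCA, which 1.47%, 0.167% and 6.75% of all stretches held. The Acta2 stretch does hold ccctatatgg and ccttgtttgg, each with 1 G or C in the core, a looser form that was not searched. These matches describe letters and say nothing of binding.

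The label checks set how firmly the groups can be read. Hmox2, which encodes HO2, had a log2 signal of 9.26 and 9.32 in combined, 11.59 and 11.60 in HO1 knockout, 8.32 and 8.38 in HO2 knockdown and 11.41 and 11.57 in control. All 4 arrays with HO2 shRNA lay below the others, and Hmox2 was at 11.4% of control in HO2 knockdown (limma adjusted p = 2.59e-14) and at 21.8% of control in combined (adjusted p = 3.17e-13). Hmox1, which encodes HO1, was higher, not lower, where the label is HO1-/-. It read 12.40 and 12.47 in combined, 11.98 and 11.97 in HO1 knockout, 11.54 and 11.57 in HO2 knockdown and 11.46 and 11.40 in control. Against control, Hmox1 was 1.46-fold higher in HO1 knockout (log2 fold change 0.54, adjusted p = 3.37e-07) and 2.01-fold higher in combined (1.01, adjusted p = 6.88e-11). A whole-transcript probe set can also sum signal outside a deletion, so the genotype is not checked by this signal, and HO1 directions below rest on the labels alone. Array medians ran between 7.611 and 7.695 on the log2 scale, and replicates correlated across genes with r between 0.9967 and 0.9986. The hepatocyte marker albumin (Alb) had a log2 signal of 13.32 or more on every array. Not all hepatocyte markers were bright: Cyp3a11 read 5.44 and 5.56 in control and 6.05 and 5.94 in HO1 knockout. With HO2 shRNA it read 8.96 and 9.32 in combined and 8.75 and 9.21 in HO2 knockdown.

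With the HO1 genotype under scrambled shRNA, 8 of the 10 genes fell in the arrays labelled HO1 knockout against control. Of the others, 0 rose and 2 (Dcn and Thy1) did not pass the test, at a limma adjusted p under 0.05 (also 8 lower and 0 higher at an unadjusted p under 0.05). The calls of Acta2, Tagln and Pdgfrb were less stable, as given below. Of all 19937 genes, 7.20% were called lower and 5.62% higher in this comparison. The median log2 fold change of the 10 was -0.46, against -0.041 over all genes. The widest falls were those of Postn, Sparc and Des, to 46.3%, 53.6% and 53.8% of control on the linear scale. HO2 shRNA in HO1+/+ cells gave no common direction: Acta2, Tagln and Lum rose, Dcn and Lox fell, and 5 did not pass the test, where 16.5% of all genes were called higher and 16.7% lower. The median of the 10 was 0.072, against -0.066 over all genes.

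In combined against control 2 of the 10 rose (Acta2 and Tagln), 5 fell (Postn, Sparc, Des, Dcn and Lox) and 3 did not pass the test, with 11.6% of all genes called higher and 18.3% lower. The median of the 10 was -0.16, against -0.019 over all genes. These 3 comparisons share their control arrays. Where HO2 shRNA was added to HO1-/- cells, in combined against the arrays labelled HO1 knockout, 6 of the 10 rose (Postn, Sparc, Acta2, Tagln, Des and Lum) and 2 fell (Dcn and Lox), with 10.2% of all genes called higher and 12.8% lower, and medians of 0.41 for the 10 and 0.014 for all genes. Where the genotype differed under HO2 shRNA, in combined against HO2 knockdown, 1 rose (Acta2) and 7 fell (all others but Tagln and Thy1), with 13.0% of all genes called higher and 21.0% lower, and medians of -0.41 and 0.022. Without the second combined array 5 of the 10 were called in that comparison.

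**Figure D1:**
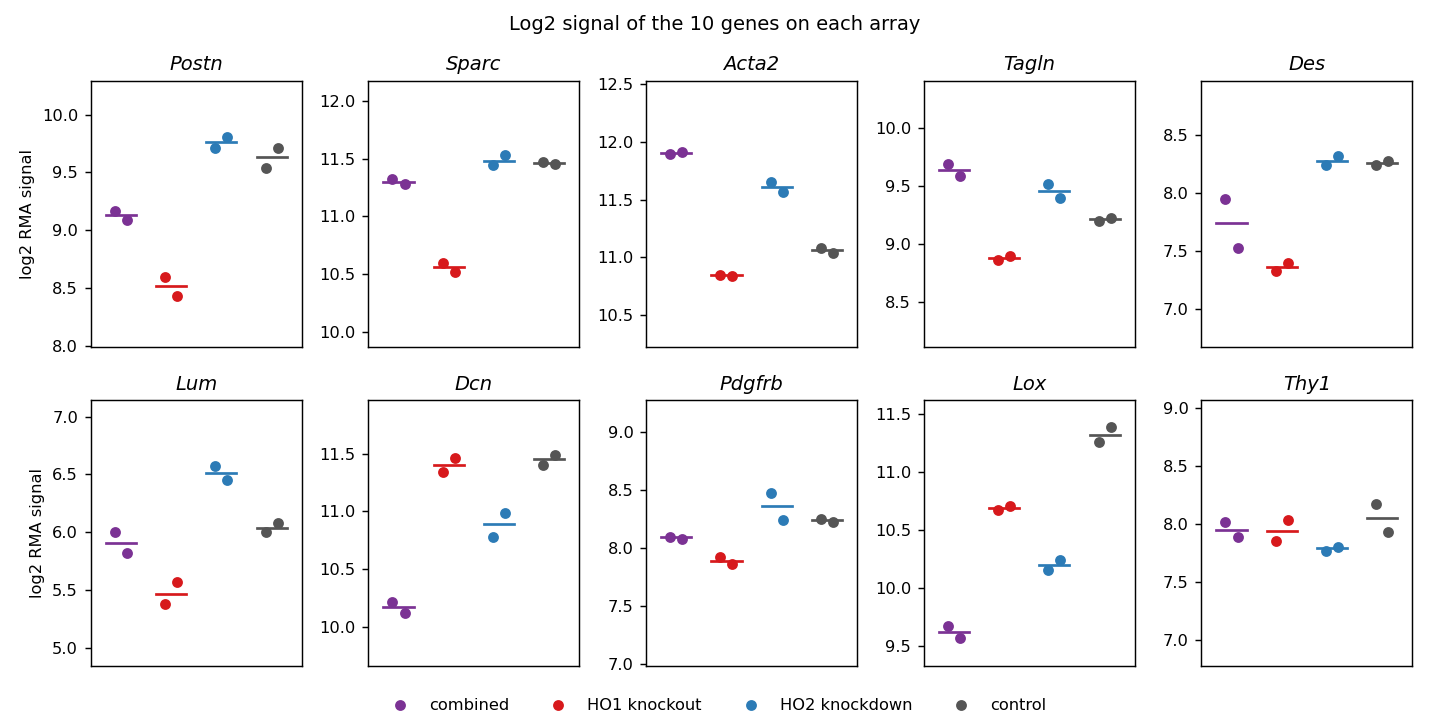
Log2 RMA signal of the 10 genes on each array, one panel a gene, with vertical axes of equal span and the mean of each group as a line (2 arrays a group). Postn, Sparc, Des and Lum are lowest in the arrays labelled HO1 knockout, Acta2 and Tagln are highest in combined, and Dcn and Lox are lowest in combined.

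Acta2 encodes smooth muscle actin, the usual marker of the activated stellate cell. Its log2 signal was 11.89 and 11.91 in combined, 10.85 and 10.84 in HO1 knockout, 11.65 and 11.57 in HO2 knockdown and 11.08 and 11.04 in control. The groups did not overlap, and both groups with HO2 shRNA lay above both groups without it. Acta2 rose 1.46-fold with HO2 shRNA in HO1+/+ cells (log2 fold change 0.55, SE 0.049, adjusted p = 3.52e-07) and 2.08-fold in HO1-/- cells (1.06, adjusted p = 2.19e-10). The interaction, the HO2 shRNA effect in HO1-/- cells minus that in HO1+/+ cells, was 0.51 (SE 0.0693, adjusted p = 0.000194). The HO1 genotype went with a lower level under scrambled shRNA, where Acta2 fell by 0.22 (adjusted p = 0.00665), and with a higher level under HO2 shRNA (0.30, adjusted p = 0.000273). The fall of 0.22 did not pass without a mean-variance trend in the fit (adjusted p = 0.0701).

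Tagln encodes transgelin, an actin-binding protein of smooth muscle and myofibroblasts, and had the same order of groups. It read 9.69 and 9.59 in combined, 8.86 and 8.90 in HO1 knockout, 9.52 and 9.40 in HO2 knockdown and 9.20 and 9.23 in control. Combined and HO2 knockdown were the neighbours whose difference missed the threshold (log2 fold change 0.18, 95% interval 0.024 to 0.33, adjusted p = 0.0701). Tagln was 1.69-fold higher in combined than in HO1 knockout (0.76, adjusted p = 9.74e-07) and 1.34-fold higher in combined than in control (0.42, adjusted p = 0.000252), and its interaction was 0.51 (SE 0.103, adjusted p = 0.00437). It fell by 0.33 in HO1 knockout against control (adjusted p = 0.00553), a call lost without the first HO1 knockout array (-0.31, adjusted p = 0.0528). The rise of 0.25 in HO2 knockdown against control (adjusted p = 0.0159) was lost without the first control array (0.23, adjusted p = 0.0533) or the first HO2 knockdown array (0.19, adjusted p = 0.164).

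Des encodes desmin, an intermediate filament protein that marks rodent stellate cells whether quiescent or activated. It read 7.95 and 7.53 in combined, 7.33 and 7.40 in HO1 knockout, 8.24 and 8.32 in HO2 knockdown and 8.24 and 8.28 in control. Both groups labelled HO1-/- lay below both HO1+/+ groups, and the combined arrays stood further apart than the replicates of any other member.

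Des fell by 0.89 in HO1 knockout against control (SE 0.117, adjusted p = 5.13e-05) and by 0.54 in combined against HO2 knockdown (adjusted p = 0.00228). HO2 shRNA gave a difference of 0.024 in HO1+/+ cells (95% interval -0.23 to 0.27) and 0.38 in HO1-/- cells (adjusted p = 0.0284). Results that include combined turned on its arrays. Without the first, the difference from HO1 knockout was 0.16 (adjusted p = 0.47), and leaving out either HO1 knockout array also ended that call (0.34 without the first, adjusted p = 0.154, and 0.41 without the second, adjusted p = 0.0787). Without the second combined array, the difference from HO2 knockdown was -0.33 (adjusted p = 0.0638) and that from control -0.30 (adjusted p = 0.0874), against -0.52 with both (adjusted p = 0.00276). The interaction of Des, 0.35 (adjusted p = 0.178), was 0.56 without that array (adjusted p = 0.0397). The fit without a trend also ended the call against HO1 knockout (adjusted p = 0.0538).

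Postn encodes periostin, a matricellular protein that binds collagen and is secreted by activated fibroblasts. It read 9.17 and 9.09 in combined, 8.60 and 8.43 in HO1 knockout, 9.71 and 9.81 in HO2 knockdown and 9.54 and 9.71 in control. Combined lay between HO1 knockout and the HO1+/+ groups, whose ranges met. Postn fell by 1.11 in HO1 knockout against control (SE 0.0827, adjusted p = 6.46e-08), by 0.49 in combined against control (adjusted p = 0.000203) and by 0.63 in combined against HO2 knockdown (adjusted p = 3.25e-05). With HO2 shRNA it was 1.53-fold higher in HO1-/- cells (0.62, adjusted p = 3.43e-05), while in HO1+/+ cells the difference was 0.13 (95% interval -0.041 to 0.31, adjusted p = 0.228). The interaction of 0.48 (SE 0.117, adjusted p = 0.014) was lost without the second HO1 knockout array (0.40, adjusted p = 0.0635), the first HO2 knockdown array (0.43, adjusted p = 0.0796) or the first combined array (0.44, adjusted p = 0.0739).

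Sparc encodes osteonectin, a matricellular protein that binds collagen and calcium. It read 11.32 and 11.28 in combined, 10.60 and 10.52 in HO1 knockout, 11.44 and 11.53 in HO2 knockdown and 11.47 and 11.45 in control. HO1 knockout stood apart below the other 6 arrays, which lay between 11.28 and 11.53. Sparc fell by 0.90 in HO1 knockout against control (SE 0.0524, adjusted p = 2.87e-09) and was 1.67-fold higher in combined than in HO1 knockout (0.74, adjusted p = 3.42e-08). HO2 shRNA in HO1+/+ cells gave a difference of 0.021 (95% interval -0.090 to 0.13), and the interaction was 0.72 (SE 0.0741, adjusted p = 2.11e-05), the highest of the 10. The small falls of combined, by 0.16 against control (adjusted p = 0.0269) and by 0.18 against HO2 knockdown (adjusted p = 0.0133), were not stable. Against control the call was lost without any 1 of the 2 control arrays or the 2 combined arrays (-0.18 to -0.14, adjusted p between 0.0674 and 0.178), without a trend, with array weights and after a second quantile normalization (adjusted p = 0.0535). Against HO2 knockdown it was lost without the second HO2 knockdown array (-0.14, adjusted p = 0.127) or the second combined array (-0.16, adjusted p = 0.104), without a trend, and after that normalization (-0.12, adjusted p = 0.102).

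**Figure D2:**
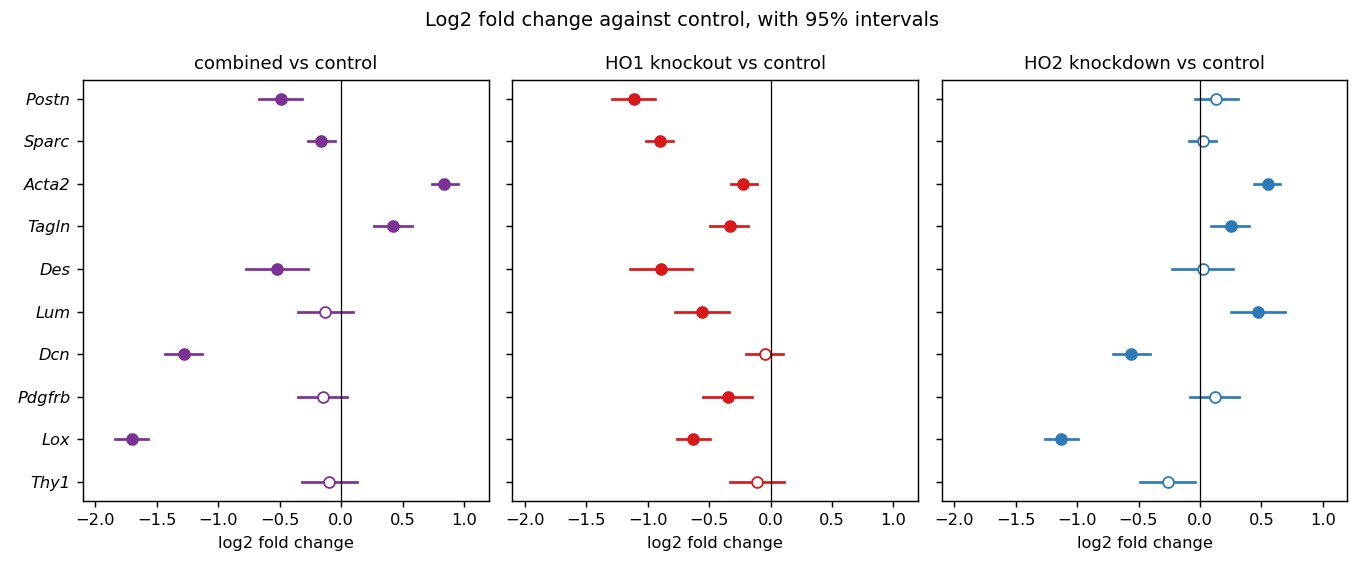
Log2 fold change of each gene against control in combined, HO1 knockout and HO2 knockdown, with 95% intervals from limma over 8 arrays. Filled points passed an adjusted p under 0.05: 7 of 10 in combined, 8 of 10 in HO1 knockout (all of them lower) and 5 of 10 in HO2 knockdown.

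The small leucine-rich proteoglycans Dcn and Lum bind collagen fibrils and set their spacing. They are adjacent coding genes in the RefSeq annotation, and HO2 shRNA in HO1+/+ cells moved them in opposite directions. Dcn, which encodes decorin, read 10.22 and 10.12 in combined, 11.34 and 11.46 in HO1 knockout, 10.78 and 10.99 in HO2 knockdown and 11.40 and 11.49 in control. The scrambled groups shared their range, HO2 knockdown lay below them and combined lowest. The difference between HO1 knockout and control was -0.046 (95% interval -0.20 to 0.10, adjusted p = 0.787). With HO2 shRNA Dcn fell by 0.56 in HO1+/+ cells (SE 0.0708, adjusted p = 1.35e-05) and by 1.23 in HO1-/- cells (adjusted p = 2.97e-09), to 67.9% and 42.6% of the scrambled level. The interaction was -0.67 (SE 0.1, adjusted p = 0.000433). In combined Dcn was at 41.2% of control (-1.28, adjusted p = 7.65e-10) and 0.72 below HO2 knockdown on the log2 scale (log2 fold change -0.72, adjusted p = 1.63e-06).

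Lum, which encodes lumican, had a dim probe set, the 1 member under the 30th percentile of all genes (log2 7.053), where background signal makes fold changes understate differences. It read 6.0 and 5.82 in combined, 5.38 and 5.57 in HO1 knockout, 6.57 and 6.45 in HO2 knockdown and 6.0 and 6.08 in control. HO1 knockout was lowest, HO2 knockdown highest, and the range of combined met that of control, with a difference that did not pass the test (log2 fold change -0.13, 95% interval -0.35 to 0.093). Lum rose by 0.47 with HO2 shRNA in HO1+/+ cells (SE 0.103, adjusted p = 0.00219) and by 0.44 in HO1-/- cells (adjusted p = 0.00512), where the call was lost without the first HO1 knockout array (0.34, adjusted p = 0.083) or the first combined array (0.35, adjusted p = 0.0922). It fell by 0.56 in HO1 knockout against control (adjusted p = 0.00131) and by 0.60 in combined against HO2 knockdown (adjusted p = 0.000389). The interaction was -0.035 (95% interval -0.35 to 0.28).

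Lox encodes lysyl oxidase, the secreted enzyme that starts the crosslinking of collagen and elastin, and its group means spanned more than those of any other member (1.70 on the log2 scale). It read 9.67 and 9.57 in combined, 10.67 and 10.71 in HO1 knockout, 10.15 and 10.24 in HO2 knockdown and 11.26 and 11.39 in control. No groups overlapped, and each perturbation went with a lower level. Lox fell by 0.63 in HO1 knockout (SE 0.0633, adjusted p = 2.59e-06), by 1.13 in HO2 knockdown (adjusted p = 1.57e-09) and by 1.70 in combined (adjusted p = 5.06e-12), each against control, and in combined stood at 30.7% of control on the linear scale. With HO2 shRNA in HO1-/- cells the difference was -1.08 (SE 0.0633, adjusted p = 3.99e-09), and the interaction was 0.051 (95% interval -0.14 to 0.24, adjusted p = 0.741). In combined it was also 0.58 lower on the log2 scale than in HO2 knockdown (log2 fold change -0.58, adjusted p = 5.22e-06).

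The surface proteins varied least. Pdgfrb encodes the receptor through which PDGF drives stellate cells to divide and migrate. It read 8.09 and 8.08 in combined, 7.92 and 7.86 in HO1 knockout, 8.47 and 8.24 in HO2 knockdown and 8.25 and 8.22 in control. HO1 knockout was lowest, and control overlapped HO2 knockdown. Pdgfrb fell by 0.35 in HO1 knockout against control (SE 0.0939, adjusted p = 0.0213) and by 0.27 in combined against HO2 knockdown (adjusted p = 0.0365). Neither call was stable. The first was lost without either HO1 knockout array (-0.38 without the first, adjusted p = 0.0711, and -0.32 without the second, adjusted p = 0.142), with array weights (adjusted p = 0.0559) and with only those groups in the fit (adjusted p = 0.0579). The other was lost without the first HO2 knockdown array (-0.15, adjusted p = 0.378) or without either combined array (-0.28, adjusted p = 0.134, and -0.26, adjusted p = 0.155). HO2 shRNA gave differences of 0.12 in HO1+/+ cells (adjusted p = 0.352) and 0.20 in HO1-/- cells (adjusted p = 0.166).

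Thy1 encodes a surface glycoprotein used to tell portal fibroblasts from stellate cells. It read 8.02 and 7.89 in combined, 7.85 and 8.04 in HO1 knockout, 7.77 and 7.80 in HO2 knockdown and 8.17 and 7.93 in control. Every group but HO2 knockdown overlapped its neighbours, and no comparison passed the test. HO2 knockdown against control came closest (-0.26, 95% interval -0.49 to -0.042, adjusted p = 0.0641). It passed with dim genes left out of the fit (-0.26, adjusted p = 0.046). It also passed with the replicate number as a block and control numbers crossed, a choice made after seeing the data (-0.26, adjusted p = 0.0495). Without the second control array that difference was -0.38. The interaction was 0.28 over all arrays (adjusted p = 0.236) and 0.40 without that array. The interval in HO1 knockout against control, -0.33 to 0.11, leaves room for a change as large as that of Acta2 in the same comparison.

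The interaction asks whether the HO2 shRNA effect differs between genotypes. The knockdown itself differed: Hmox2 was 1.92-fold higher in combined than in HO2 knockdown (log2 fold change 0.94, adjusted p = 2.4e-08), with an interaction of 0.84 (adjusted p = 3.86e-05), and its part in the members' interactions was not tested. Among the members, the interaction passed the test in 5 of the 10. Sparc, Acta2, Tagln and Postn were higher in combined than the sum of the separate effects gives, and Dcn was lower. Of all genes, 4.67% were called higher and 7.57% lower, and the median was 0.31 for the 10 against 0.048 over all genes. Acta2 and Tagln, which rose with HO2 shRNA in both genotypes, rose more in HO1-/- cells, and Dcn fell more there. Sparc and Postn passed the test for an HO2 shRNA effect in HO1-/- cells and not in HO1+/+ cells. For Lox, Lum and Pdgfrb the estimates were between -0.035 and 0.078.

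**Figure D3:**
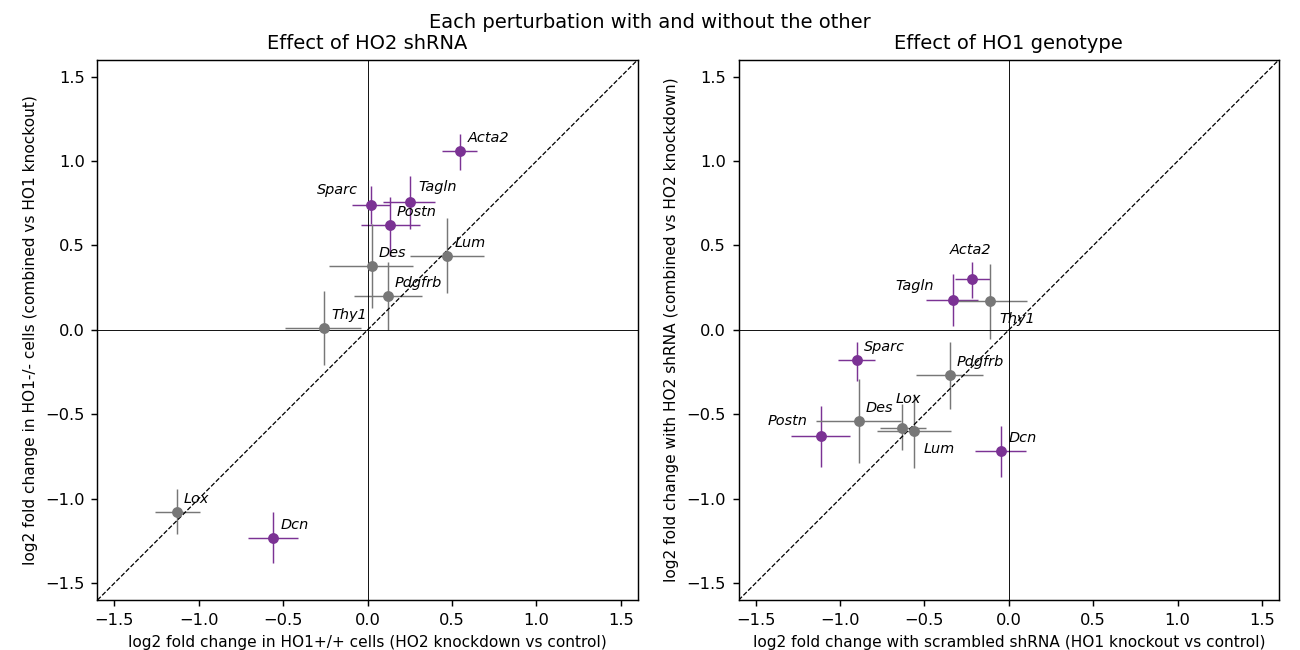
Log2 fold change of each gene with HO2 shRNA in HO1-/- cells against that in HO1+/+ cells (left) and with the HO1 genotype under HO2 shRNA against that under scrambled shRNA (right), with 95% intervals. Purple genes passed the interaction test (5 of 10), and points on the dashed diagonal have equal effects in both settings. Lox lies on the left diagonal at -1.13 and -1.08, Sparc far above it and Dcn far below.

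The counts of related genes against control are read beside those over all genes, 11.6% higher and 18.3% lower in combined, 5.62% and 7.20% in HO1 knockout, and 16.5% and 16.7% in HO2 knockdown. Of 23 genes of the actin cytoskeleton and targets of serum response factor, 22 were measured, and in combined against control 8 rose and 1 fell, in HO1 knockout 0 rose (2 at an unadjusted p under 0.05) and 4 fell, and in HO2 knockdown 7 rose and 1 fell, with medians of 0.077, 0.014 and 0.012. Myl9, the regulatory light chain of smooth muscle myosin, rose with Acta2, by 1.48 in combined (adjusted p = 7.32e-10) and 0.76 in HO2 knockdown (adjusted p = 2.34e-06). Its level was 11.91 and 11.94 in combined, 10.77 and 10.43 in HO1 knockout, 11.18 and 11.24 in HO2 knockdown and 10.49 and 10.40 in control. Cnn1, which encodes calponin of contractile filaments, rose by 0.73 in combined (adjusted p = 1.16e-06), while in HO2 knockdown its difference was -0.052. Actn1, which encodes the crosslinker alpha-actinin, fell by 0.23 in HO1 knockout (adjusted p = 0.000729) and by 0.18 in HO2 knockdown (adjusted p = 0.00204).

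All 10 other small leucine-rich proteoglycans were measured, and in combined against control 0 rose and 1 fell, in HO1 knockout 1 rose and 2 fell, and in HO2 knockdown 3 rose and 0 fell, with medians of 0.0068, -0.078 and -0.036. Both counts of 0 stay at 0 at an unadjusted p under 0.05 in limma. With 10 genes, and shares over all genes of 11.6% higher and 18.3% lower in combined and 5.62% and 7.20% in HO1 knockout, these counts are no result about the list. Ogn, which encodes osteoglycin, moved in the same directions as Lum, with a fall of 0.93 in HO1 knockout (adjusted p = 2.45e-05) and a rise of 0.73 in HO2 knockdown (adjusted p = 0.00012). Prelp, whose product binds collagen and basement membrane, rose by 1.18 in HO1 knockout (adjusted p = 4.16e-09) and fell by 0.84 in combined (adjusted p = 1.24e-07). It read 8.32 and 8.35 in combined, 10.35 and 10.35 in HO1 knockout, 9.17 and 9.28 in HO2 knockdown and 9.14 and 9.20 in control, so that HO1 knockout was highest and combined lowest. Kera, the coding gene on the other side of Lum, stayed between 5.29 and 5.56 on all arrays and passed no test. That is under the 30th percentile of all genes (log2 7.053), so the flat reading does not show an unchanged gene. Ogn was also dim, with group means under that level except in HO2 knockdown (7.34).

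Of 25 matricellular and elastic fibre genes, 22 were measured, and 2 rose and 5 fell in combined against control, 2 rose and 5 fell in HO1 knockout, and 3 rose and 8 fell in HO2 knockdown, with medians of -0.013, -0.061 and -0.19. In combined these counts are near the 11.6% higher and 18.3% lower of all genes and say nothing particular of the list. Tgfbi, a TGF-beta-induced matrix protein that macrophages also make, was 2.19 higher in combined (adjusted p = 2.62e-11) and 2.09 higher in HO1 knockout (adjusted p = 8.08e-11). Tnc, which encodes tenascin C of injured tissue, fell with Postn in HO1 knockout, by 0.79 (adjusted p = 1.69e-07). Fbln2, which encodes the matrix protein fibulin 2, fell by 1.13 in combined (adjusted p = 7.11e-09) and by 1.36 in HO2 knockdown (adjusted p = 1.24e-09).

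Of 22 genes of PDGF and TGF-beta signalling, 21 were measured, and 2 rose and 8 fell in combined against control, 2 rose and 8 fell in HO1 knockout, and 1 rose and 6 fell in HO2 knockdown, with medians of -0.13, -0.19 and -0.085. Pdgfb, which encodes the main ligand of the receptor made from Pdgfrb, fell by 0.76 in combined (adjusted p = 3.09e-08) and by 0.82 in HO2 knockdown (adjusted p = 1.73e-08). Tgfbr1, a TGF-beta receptor chain, fell by 0.92 in HO2 knockdown (adjusted p = 2.45e-09), while its partner Tgfbr2 rose by 0.25 (adjusted p = 0.0029). Inhba, which encodes an activin subunit, fell by 0.64 in HO1 knockout (adjusted p = 1.65e-07). Actg1, Fbn1, Efemp2 and Loxl2 of these lists were not analysed here.

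**Figure D4:**
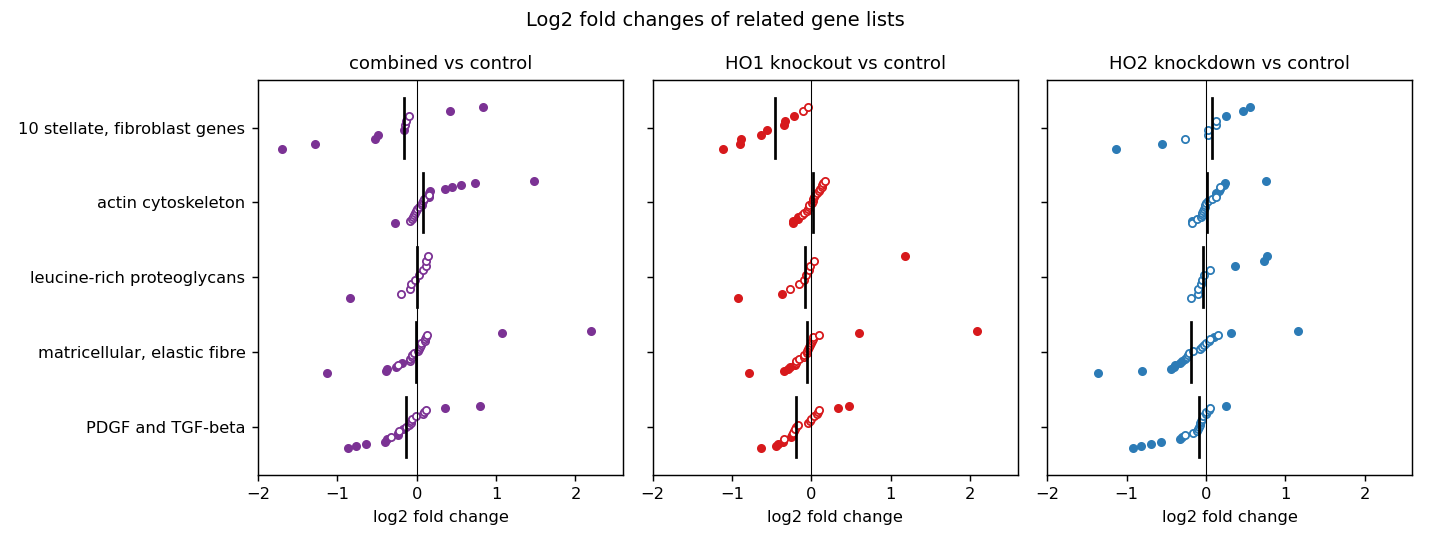
Log2 fold change against control of the 10 genes and of the related lists, one point a gene, filled where it passed an adjusted p under 0.05, with the list median as a bar. In HO1 knockout all 10 stellate and fibroblast genes lie below 0 (median -0.46), while the medians of the other lists lie between -0.19 and 0.014.

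Markers of other liver cells moved with the same groups. In the arrays labelled HO1 knockout, where 8 of the 10 fell against control, 6 of 9 Kupffer cell and macrophage markers were higher and 1 lower, and 6 of 7 hepatocyte markers were higher (median log2 fold change 0.37). Of all genes, 5.62% were called higher and 7.20% lower in HO1 knockout against control. The mean log2 signal of the macrophage markers was 10.04 to 10.07 in combined and 9.87 to 9.89 in HO1 knockout. It was 7.66 to 7.76 in HO2 knockdown and 7.76 to 7.77 in control. In HO1 knockout against control the widest rises were those of Adgre1 (4.65, adjusted p = 1.3e-14) and Lyz2 (4.54, adjusted p = 4.18e-15). The 1 lower was Vsig4, a marker of resident Kupffer cells, which fell by 1.07 in HO1 knockout against control (adjusted p = 2.17e-05). Vsig4 was dim in HO1 knockout, at 6.24 and 6.47 (under log2 7.053). In combined it was not lower than in control (0.28, adjusted p = 0.135), and it was 1.35 higher than in HO1 knockout (adjusted p = 9.85e-07). Clec4f, another marker of resident Kupffer cells, read between 7.02 and 7.73 over the 8 arrays. It fell by 0.34 in HO2 knockdown against control (adjusted p = 0.0331) and was 0.53 higher in combined than in HO2 knockdown (adjusted p = 0.00258). With HO2 shRNA, where Acta2 rose and Dcn and Lox fell, all 7 measured hepatocyte markers were higher than in the scrambled group of that genotype. Over all genes, 16.5% were called higher in HO2 knockdown against control and 10.2% in combined against HO1 knockout. The mean of the hepatocyte markers was 12.78 to 12.86 in combined and 11.47 to 11.50 in HO1 knockout. It was 12.66 to 12.79 in HO2 knockdown and 11.11 to 11.13 in control. The part of either list in the results of the 10 was not tested.

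The mean of 7 sinusoidal endothelial markers was 7.87 to 7.99 in combined, 7.42 to 7.47 in HO1 knockout, 7.50 to 7.54 in HO2 knockdown and 7.06 to 7.18 in control. The means of 4 cholangiocyte markers measured (of 5) lay between 9.96 and 10.17, and those of 7 markers of portal fibroblasts and mesothelium between 9.05 and 9.25, over members that moved in opposite directions. In combined against control the cholangiocyte keratin Krt7 was 1.33 higher (adjusted p = 1.14e-10) and the transcription factor Sox9 fell by 0.76 (adjusted p = 1.43e-08). The mesothelial marker Msln was 0.82 higher there (adjusted p = 1.04e-06), while Fbln2 fell by 1.13, and the portal fibroblast marker Entpd2 was 0.69 higher in HO2 knockdown (adjusted p = 4.14e-07). The 5 smooth muscle markers averaged 8.59 to 8.65 in combined, where Acta2 was highest, 8.29 to 8.36 in HO1 knockout, 8.28 to 8.29 in HO2 knockdown and 8.26 to 8.36 in control. In combined against control 3 of them were called higher and 1 lower, with 11.6% of all genes called higher and 18.3% lower. Myh11, the smooth muscle myosin heavy chain, was 0.45 higher (adjusted p = 0.00181), Smtn, which encodes smoothelin, fell by 0.27 (adjusted p = 0.00395), and Lmod1 had a difference of 0.093 (adjusted p = 0.654). Myh11 and Lmod1 were named after their values were seen. The part of these lists, too, was not tested.

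Of 8 markers of the quiescent stellate cell measured, limma called 0 higher and 0 lower in HO1 knockout against control (0 and 1 at an unadjusted p under 0.05), with a median of -0.018. Their mean signal was 7.76 in both combined arrays, 7.56 to 7.63 in HO1 knockout, 7.80 to 7.88 in HO2 knockdown and 7.60 to 7.67 in control. Against control 2 rose and 1 fell in combined, and likewise 2 and 1 in HO2 knockdown. Over all genes, 11.6% were called higher and 18.3% lower in combined, and 16.5% and 16.7% in HO2 knockdown. In HO1 knockout these shares were 5.62% and 7.20%. With 8 genes, the counts are no result about the list. Reln, which encodes the secreted protein reelin, rose by 1.21 in combined (adjusted p = 3.23e-08) and by 0.93 in HO2 knockdown (adjusted p = 9.1e-07). Lrat, the enzyme that esterifies vitamin A for storage, rose by 1.30 in HO2 knockdown (adjusted p = 9.56e-07), and in combined its difference from control was 0.11 (adjusted p = 0.604). It read 7.57 and 7.55 in combined, 6.95 and 7.26 in HO1 knockout, 8.58 and 8.91 in HO2 knockdown and 7.57 and 7.32 in control, highest in HO2 knockdown alone. Rgs5, a regulator of G-protein signalling found in pericytes and stellate cells, fell by 0.98 in combined (adjusted p = 5.04e-07) and by 0.32 in HO2 knockdown (adjusted p = 0.0148). Gfap stayed at 6.98 or less on every array, under the 30th percentile of all genes (log2 7.053).

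**Figure D5:**
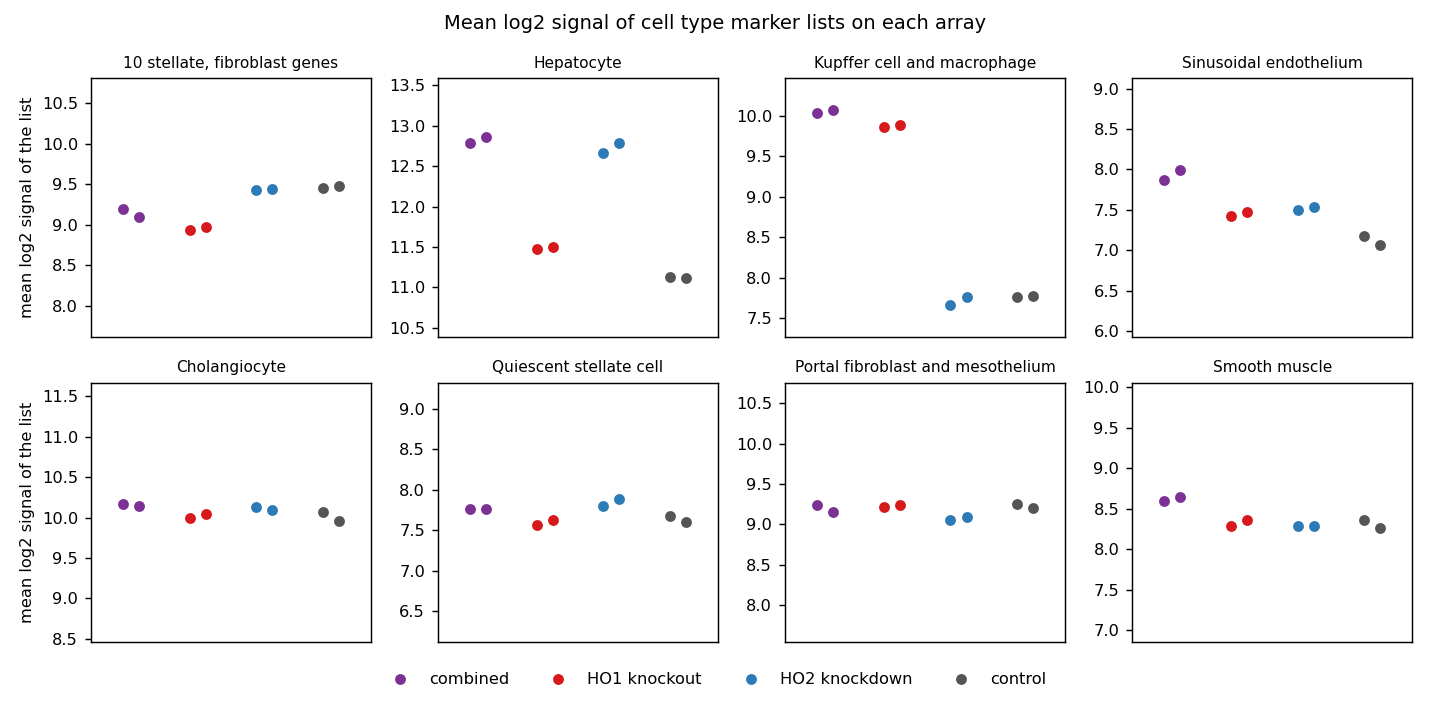
Mean log2 signal of the 10 genes and of each cell type marker list on each array (2 arrays a group), with vertical axes of equal span. Macrophage markers are high in combined and HO1 knockout, hepatocyte markers in combined and HO2 knockdown, and quiescent stellate cell markers lie between 7.56 and 7.88 on every array.

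Among the 1009 genes whose group means spanned at least 1 on the log2 scale, the patterns most like that of Postn over the 8 arrays were those of Nox4 (Pearson's r = 0.986), Serpinb9c (0.972), Nrk (0.972), Krt23 (0.968) and Ppfibp2 (0.966). Nox4, an NADPH oxidase, had group means of 11.46 in combined, 10.79 in HO1 knockout, 12.19 in HO2 knockdown and 11.86 in control. For Acta2 they were Zim1 (0.989), Jam2 (0.987), Reln (0.985), Ncam1 (0.985) and Rasgrp3 (0.984). Jam2, an adhesion protein of cell junctions, averaged 9.96 in combined, 8.59 in HO1 knockout, 9.72 in HO2 knockdown and 8.94 in control. The 8 points come from 4 groups, so these values rank likeness over group means and carry no test.

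Pdgfrb lies next to Csf1r, the receptor of the macrophage growth factor, in the RefSeq annotation, and these neighbours differed in direction. Csf1r read 10.30 and 10.35 in combined, 10.19 and 9.93 in HO1 knockout, 7.69 and 7.50 in HO2 knockdown and 7.40 and 7.40 in control. It was 2.66 higher in HO1 knockout than in control (adjusted p = 3.75e-12), where Pdgfrb was 0.35 lower on the log2 scale (log2 fold change -0.35).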

How the data were processed

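Total RNA of 8 hepatocyte samples was measured on whole-transcript arrays. The deposited values are log2 signals that the authors computed by RMA for each probe set. The submitters' processing notes name the affy package and R 2.15.0. Neither a chip definition file nor a build is given in the sources used here. Of 34760 probe sets, 21640 carried 1 gene symbol and were used (1321 had several, 11799 none), and the brightest per gene left 19937 genes. Nothing was normalized further. Arrays have no read depth, and their number limits the precision.

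A limma model (3.58.1, in R 4.3.3) gave each of the 4 groups a mean over the 8 arrays, with a mean-variance trend, 4 residual and 11.2 prior degrees of freedom. In 6 comparisons, two-sided p-values received Benjamini-Hochberg adjustment across the whole gene table, and an adjusted p under 0.05 was a call. In data simulated for HO1 knockout against control (19937 genes, 50 changed by each size), 10%, 62%, 96% and 100% of genes changed by 0.25, 0.5, 1 and 2 (log2) were called. In the real comparison 5.62% of genes were called higher and 7.20% lower. The adjustment depends on the share of changed genes, so the simulated recovery need not hold for the real arrays.

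The 10 genes and the lists were chosen with earlier results of these data known. Named from the lists are up to 2 called genes a direction and comparison with the largest change. The patterns of Postn and Acta2 were set against genes whose group means span at least 1. Individual genes named beyond this (Kera and Csf1r as neighbours, Alb, Myh11, Lmod1 and Gfap as markers) were chosen after their values were seen. Alternatives changed thresholds, the filter on dim genes, scaling, the variance model, array weights, the choice of probe sets, the samples fitted and the replicate block, or left out each array.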

Additional observations from a re-analysis of the deposited data

Results flagged for a closer look

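For 5 of the 10 genes the effect of HO2 shRNA differed between genotypes by a test of the difference itself (limma interaction term, adjusted p under 0.05). The interaction was 0.48 for Postn, 0.72 for Sparc, 0.51 for Acta2, 0.51 for Tagln and -0.67 for Dcn on the log2 scale. With 2 arrays a group, no test for an outlying array was made.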

How the results depend on the processing

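Over 21 alternatives, 1204 values of the 10 genes were recomputed: 1107 kept their direction and side of the threshold, 74 lost a call, 7 gained one and 16 changed sign. None of the 41 called differences changed sign under the alternatives run for it. The 7 that kept their call under each of those are the ones that reach 2-fold. The 2-fold threshold drops all others by construction, and part of the 74 losses come from it. Sparc, Des, Lum and Lox in HO1 knockout against control lost their call to that threshold alone. Lum was not in the fit without dim genes. The crossed replicate block was run only for HO1 knockout and HO2 knockdown against control. A threshold of 2-fold left 1 member called in HO1 knockout against control, 1 in HO2 knockdown against control, 2 in combined against control, 3 in combined against HO1 knockout, 0 in combined against HO2 knockdown and 0 in the interaction (fewer by construction). Leaving out 1 array at a time gave between 5 and 8 members called in combined against HO2 knockdown, 5 without the second combined array. The signs that changed were those of small differences that passed no test. With 1 array left out, the range was -0.11 to 0.017 for Dcn and -0.23 to 0.011 for Thy1 in HO1 knockout against control, -0.026 to 0.068 for Sparc and -0.018 to 0.066 for Des in HO2 knockdown against control, -0.22 to 0.022 for Thy1 in combined against control, and -0.083 to 0.11 for Thy1 in combined against HO1 knockout. For the interaction it was -0.13 to 0.057 for Lum, -0.039 to 0.19 for Pdgfrb and -0.013 to 0.12 for Lox. A second quantile normalization put Sparc at -0.024 in HO2 knockdown against control. It took Tagln past the threshold in combined against HO2 knockdown (0.26, adjusted p = 0.00836), as array weights did (0.18, adjusted p = 0.0343). The causes were not tested. Centring arrays on their medians changed the share of higher calls over all genes to 62.9% (49.7% as deposited) in HO2 knockdown against control, 24.1% (38.2%) in combined against HO2 knockdown and 27.1% (38.2%) in the interaction, which was 50.4% after quantile normalization. Medians of all genes moved by less than 0.1.

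Same-numbered arrays did not deviate together (correlations of -0.26 for HO1 knockout and control, -0.17 for HO2 knockdown and control, 0.12 for combined and HO2 knockdown, others nearer 0). The main fit therefore did not pair samples by number. With 2 arrays a group, these correlations cannot show whether animals or preparations were shared. With the replicate number as a block, 8, 5, 7, 8, 8 and 5 members were called in the 6 comparisons, the same counts as without it. With control numbers crossed in that block, a choice made after seeing the data, 8 members were called in HO1 knockout against control and 6 in HO2 knockdown against control. With 2 arrays a group, changes of 0.25 were mostly missed in simulated data, where few genes were changed.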
